A study of Drosophila melanogaster with 8 samples.

Results

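The genes described here are the translation factors and the aminoacyl-tRNA synthetases of Drosophila melanogaster, measured in larvae that carry a mutant allele of a soluble guanylyl cyclase subunit. Members were chosen by name alone: symbols that begin with eIF, eEF or eRF for the factors, and an amino acid's short name followed by RS, with -m for a mitochondrial enzyme, for the synthetases. Spots with several gene symbols were left out, among them 2 that listed a member. This gave 43 of the 6793 genes named on the arrays, 31 factors and 12 synthetases. A current gene table holds 86 such names (54 factors and 32 synthetases), and those with no named spot are not analysed here.

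Total RNA from larvae of the third instar was compared on 8 spotted cDNA arrays, each read in 2 colours. On 4 arrays, channel 2 held RNA of untreated Rover larvae carrying DGCalpha1[3] and channel 1 held RNA of untreated Rover larvae without it. The other 4 arrays set sitter larvae carrying DGCalpha1[3] against sitter larvae without it in the same way. Rover and sitter are natural variants of larval foraging behaviour and served as genetic backgrounds. The labels name the strains only by a reference to earlier work, and they do not state how many larvae were pooled or whether the arrays of a background came from separate cultures. For this reason the p-values speak only to how far these arrays scattered, and that scatter may be technical. RNA came from larvae, not from a single tissue, so fewer cells of a type and less RNA per cell cannot be told apart.

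Protein synthesis begins when initiation factors load the small ribosomal subunit and an initiator tRNA onto an mRNA and find the start codon. Elongation factors then bring charged tRNAs to the ribosome, and release factors end the chain at a stop codon. The synthetases charge each tRNA with its amino acid. Most animals, flies included, use one set of synthetases in the cytosol and, for many amino acids, a separate nuclear-encoded set in mitochondria, where the proteins encoded by mitochondrial DNA are made.

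The deposited value is a log2 ratio of the 2 channels of an array, base 2 being an assumption. Which channel is the numerator, and which dye each channel carried, are not given in the sources used here. Ratios are therefore described by sign alone, and no direction relative to the mutant is read from them. Arrays did not centre on 0: the median over all 19325 features lay between -0.50 and -0.26 on the Rover arrays and between -0.31 and -0.11 on the sitter arrays. The spread differed too, with a robust SD of 0.45 to 0.79 on the Rover arrays and 0.31 to 0.60 on the sitter arrays. It was lowest on 3 arrays, those with the detector gain for Cy5 at 67 or 68 in place of 64 (Rover 1, sitter 1 and sitter 4), and the part of the gain in the members' ratios was not tested. For these reasons results are given as deposited and, for the counts and the members described, also after each array was centred on its median. How precise a value can be is limited by there being 4 arrays a background.

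As a class the mitochondrial synthetases had the most negative median ratio, and the medians of the cytosolic synthetases and of the factors were nearer 0. The median ratio of the 8 mitochondrial synthetases was -0.74 in Rover and -0.53 in sitter. That of the 4 cytosolic synthetases was -0.25 in Rover and -0.09 in sitter, and that of the 31 factors was -0.08 in Rover and -0.04 in sitter. Over all features the median was -0.39 in Rover and -0.20 in sitter. In each background the median of the mitochondrial enzymes was below that of all features, and the medians of the cytosolic enzymes and of the factors were above it. This did not hold for every array or enzyme: 0 of the 4 cytosolic synthetases lay above the array median on sitter 1, and the centred means of GluRS-m and PheRS-m were positive in both backgrounds.

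On each array the median of the factors was above that of the synthetases. The difference, factors minus synthetases, was 0.14, 0.43, 0.39 and 0.56 on Rover arrays 1 to 4, with a mean of 0.38 ± 0.18 (SD, n = 4). It was 0.06, 0.17, 0.30 and 0.12 on sitter arrays 1 to 4, with a mean of 0.16 ± 0.10 (SD, n = 4). The ranges of the backgrounds overlapped, and the difference was positive on 8 of 8 arrays. Against the cytosolic synthetases alone, the factors differed by 0.09 ± 0.20 in Rover, positive on 3 of 4 arrays, and by 0.04 ± 0.03 in sitter (SD, n = 4 each). The Rover mean rested on Rover 4, at 0.36, with the other 3 arrays between -0.09 and 0.10.

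The mean gap between the compartments, -0.53 in Rover and -0.43 in sitter, was larger in size than that between factors and synthetases. On Rover 4 and sitter 1 it was smaller. Mitochondrial minus cytosolic medians were -0.42, -0.72, -0.53 and -0.44 on the Rover arrays and -0.05, -0.87, -0.68 and -0.13 on the sitter arrays. They were negative on 8 of 8 arrays. The values nearest 0 came from sitter 1 and sitter 4, which were scanned at the higher gain.

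**Figure D1:**
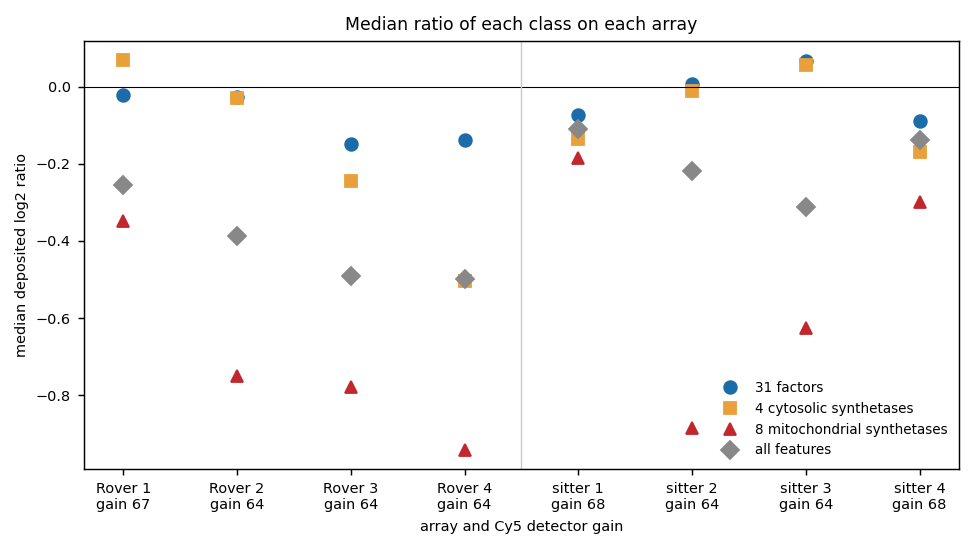
Median log2 ratio (vertical axis, as deposited) of the translation factors, the cytosolic synthetases and the mitochondrial synthetases on each of the 8 arrays (horizontal axis), with the median of all features for comparison. The mitochondrial synthetases lie below the cytosolic ones on 8 of 8 arrays, by 0.87 on sitter 2 and by 0.05 on sitter 1.

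Tested gene by gene with limma over all features, 12 of the 43 members passed an adjusted p of 0.05 in Rover, or 27.9%, where 46.7% of all features passed. All 12 were negative, as were 45% of all features. They were 7 of the 12 synthetases and 5 of the 31 factors. In sitter 6 members were called (4 synthetases and 2 factors, all negative), where 23.7% of all features were called and 23% were called negative. Over both backgrounds 11 members were called (6 synthetases and 5 factors, all negative), where 48.8% of all features were called and 46.8% were called negative. The factor share in Rover, 16.1%, and in sitter, 6.45%, was below that of all features. The synthetase share, 58.3% in Rover and 33.3% in sitter, was above it. Over both backgrounds the synthetase share was 50%, near the 48.8% of all features, and the factor share was 16.1%.

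After centring, most called factors were positive, while the mitochondrial synthetases still called were all negative. In Rover those were 4 of the 8, against 7 as deposited, and GluRS-m turned from -0.31 to 0.10 with no call. In Rover 17 factors were called, 15 of them positive, where 24.7% of all features were called positive. The synthetases gave 1 positive call and 4 negative calls in Rover, where 23.4% of all features were called negative. In sitter 2 factors were called positive, where 2.7% of all features were, and 3 synthetases negative, where 10.6% of all features were. Over both backgrounds 18 factors were positive and 2 negative, and 1 synthetase was positive and 5 negative, where 28.1% of all features were called positive and 32% negative.

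These counts rest on particular arrays. Without sitter replicate 2 or 3, no member was called in sitter on either scale, and the calls over all features as deposited dropped to 24 and 22. Without Rover replicate 2, 3 factors were called in Rover as deposited, and after centring 8 factors and 1 synthetase. Without Rover replicate 4, 4 synthetases were called in Rover as deposited, and after centring 9 factors and 2 synthetases. Without Rover replicate 3, 2 synthetases were called in Rover after centring. The Rover calls over all 19325 features also depended on the arrays. With 1 array left out they ran from 7090 to 8918 as deposited, against 9019 on all 8 arrays. After centring they ran from 4589, without Rover replicate 2, to 9427, against 9304 on all 8 arrays. In sitter as deposited, 1 factor was called without Rover replicate 2, 3 or 4, and after centring the repeats that left out 1 array gave 0 to 3 factors and 0 to 3 synthetases. Over all features these repeats gave 22 to 5023 calls in sitter as deposited and 25 to 2643 after centring.

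**Figure D2:**
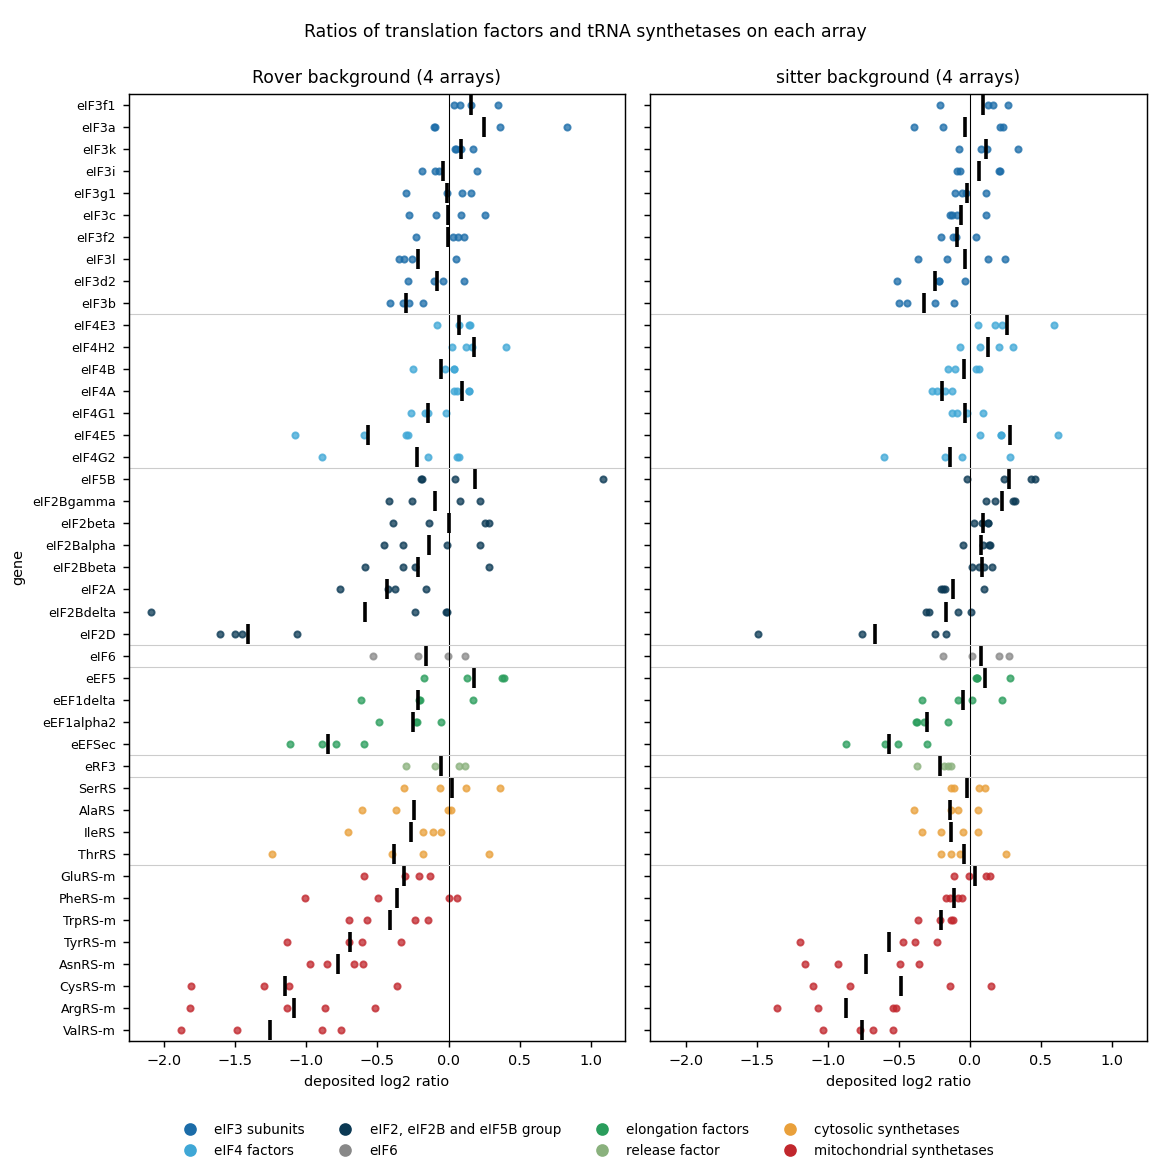
Deposited log2 ratio (horizontal axis) of each of the 43 members (vertical axis, grouped by role) on the Rover arrays, left, and the sitter arrays, right, with a point for each of the 4 arrays and a bar at their mean. Negative values run across all 8 arrays for eIF2D, eEFSec, eIF3b and eEF1alpha2 among the factors and for ValRS-m, ArgRS-m, AsnRS-m, TyrRS-m and TrpRS-m among the synthetases, while most eIF3 and eIF4 factors stay near 0.

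Of the 7 members of most negative mean over both backgrounds, 5 were mitochondrial synthetases and the others were eIF2D and eEFSec. ValRS-m (CG5660), which charges the mitochondrial valine tRNA, had ratios of -0.76, -0.89, -1.88 and -1.49 on the Rover arrays and -0.54, -1.03, -0.78 and -0.68 on the sitter arrays. It was negative on all 8 arrays, and the backgrounds overlapped. Its mean was -1.25 ± 0.53 in Rover (adjusted p = 0.00217) and -0.76 ± 0.21 in sitter (adjusted p = 0.0239; SD, n = 4 each, limma). Centred, it was -0.85 in Rover (adjusted p = 0.00736) and -0.56 in sitter (adjusted p = 0.0476), and 6 of the 8 repeats that left out 1 array lost the centred sitter call.

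ArgRS-m (CG10092), the enzyme for arginine, had -0.52, -1.82, -1.14 and -0.87 on the Rover arrays and -0.54, -1.07, -1.36 and -0.52 on the sitter arrays. Its mean was -1.09 ± 0.55 in Rover (adjusted p = 0.00432) and -0.87 ± 0.41 in sitter (adjusted p = 0.0249; SD, n = 4 each). The value on Rover 2 averages spots of -3.09 and -0.55, the widest disagreement between spots of any member. With the first-listed spot alone the Rover mean was -0.67 (adjusted p = 0.017). Centred, the mean was -0.68 in Rover (adjusted p = 0.0218, lost without Rover replicate 2 or 3) and -0.68 in sitter (adjusted p = 0.0496), the sitter call holding in 2 of the 8 repeats that left out 1 array.

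AsnRS-m (CG6796), the enzyme for asparagine, varied least among these enzymes in Rover. It had -0.60, -0.98, -0.86 and -0.67 on the Rover arrays and -0.36, -0.93, -1.16 and -0.49 on the sitter arrays. The means were close, -0.78 ± 0.17 in Rover (adjusted p = 0.00374) and -0.73 ± 0.38 in sitter (adjusted p = 0.0175; SD, n = 4 each). Centred, they were -0.37 in Rover (adjusted p = 0.0426) and -0.54 in sitter (adjusted p = 0.0361), the Rover call holding in 2 of the 8 repeats that left out 1 array.

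CysRS-m (CG8257), the enzyme for cysteine, had -0.36, -1.81, -1.30 and -1.12 on the Rover arrays and 0.15, -0.84, -1.10 and -0.14 on the sitter arrays. Both backgrounds spread over more than 1 log2 unit, with Rover 1, sitter 1 and sitter 4 nearest 0. The mean was -1.15 ± 0.60 in Rover (adjusted p = 0.00664) and -0.48 ± 0.59 in sitter, which did not pass (adjusted p = 0.208; SD, n = 4 each). Centred, it was -0.74 in Rover (adjusted p = 0.026, lost without Rover replicate 2, 3 or 4) and -0.29 in sitter (adjusted p = 0.354).

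TyrRS-m (CG16912), the enzyme for tyrosine, had -0.33, -0.61, -0.70 and -1.14 on the Rover arrays and -0.23, -1.20, -0.47 and -0.39 on the sitter arrays. Its mean was -0.70 ± 0.33 in Rover (adjusted p = 0.0116) and -0.57 ± 0.43 in sitter (adjusted p = 0.0475; SD, n = 4 each). It was negative on all 8 arrays, but the Rover call was lost without Rover replicate 4 and the sitter call held in 3 of the 8 repeats that left out 1 array. Centred, it was -0.29 in Rover (adjusted p = 0.154) and -0.38 in sitter (adjusted p = 0.118), called in neither. The gene was printed as 4 spots, and they did not give the same ratio: over the 8 arrays 2 spots averaged -0.99 and -0.94 and the other 2 averaged -0.28 and -0.31. Which pair is nearer the RNA of the gene was not tested.

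**Figure D3:**
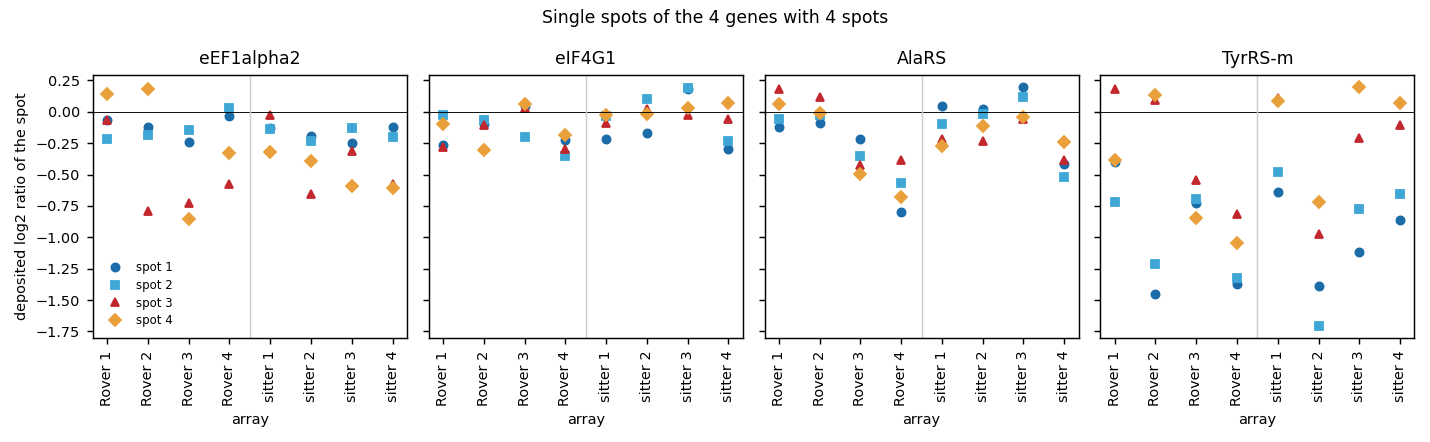
Deposited log2 ratio of every spot of the 4 members printed 4 times (TyrRS-m, eEF1alpha2, AlaRS and eIF4G1), by array. The TyrRS-m spots form 2 pairs, with means of -0.99 and -0.94 against -0.28 and -0.31, while the 4 AlaRS spots average between -0.22 and -0.17.

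The other 3 mitochondrial enzymes had smaller ratios. TrpRS-m (CG7441, tryptophan) ran between -0.70 and -0.15 on the Rover arrays and between -0.36 and -0.12 on the sitter arrays, and was called in Rover (mean -0.42, adjusted p = 0.0191) and not in sitter (mean -0.21, adjusted p = 0.253). That Rover call was lost without Rover replicate 3 or 4. Centred, both means were -0.01, the middle of the arrays. PheRS-m (CG13348, phenylalanine) was called in neither background, with a mean of -0.36 ± 0.50 in Rover and -0.11 ± 0.05 in sitter (SD, n = 4 each). Its centred means were 0.05 in Rover and 0.08 in sitter.

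GluRS-m (CG4573), the enzyme for glutamate, was the mitochondrial synthetase nearest 0. It had -0.13, -0.31, -0.21 and -0.60 on the Rover arrays and 0.12, 0.00, -0.11 and 0.14 on the sitter arrays, and these did not overlap. The Rover mean of -0.31 passed only just (adjusted p = 0.0428), held in 1 of the 8 repeats that left out 1 array, and became 0.10 after centring. The sitter mean was 0.04 (adjusted p = 0.855), and 0.23 after centring (adjusted p = 0.124).

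By the counts, 7 of the 8 mitochondrial synthetases were called in Rover (87.5%) and 4 in sitter (50%), where 46.7% and 23.7% of all features were called. Of the 8, 5 were negative on all 8 arrays as deposited, where 32.8% of all features were. After centring, 4 of the 8 were (ValRS-m, ArgRS-m, AsnRS-m and TyrRS-m), where 19.2% of all features were. TyrRS-m enters both counts by the average over its spots, which disagreed. Single spots of it were positive as deposited on arrays that included Rover 2 (0.09 and 0.13) and sitter 1 (0.11 and 0.09). The average hides single spots of other enzymes too. TrpRS-m, negative on all 8 arrays as deposited, had a spot at 0.12 on Rover 1 and a spot at 0.05 on sitter 2. ArgRS-m on Rover 1 (-0.12, array median -0.26) and AsnRS-m on Rover 4 (-0.39, array median -0.50) each had a spot above the array median. The mitochondrial synthetases called after centring in Rover were ValRS-m, ArgRS-m, CysRS-m and AsnRS-m, 4 of the 8, where 23.4% of all features were called negative.

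The cytosolic synthetases gave 0 calls of 4 as deposited in either background, and 0 of 4 passed an unadjusted p of 0.05, which 52.7% of all features did in Rover and 38% in sitter. SerRS (CG17259), which charges serine tRNAs and also the selenocysteine tRNA where one is used, had 0.12, 0.36, -0.31 and -0.06 on the Rover arrays and -0.11, 0.06, 0.11 and -0.13 on the sitter arrays. Its means were 0.03 and -0.02 (adjusted p = 0.883 in Rover and 0.938 in sitter). Centred, it was the synthetase of positive call in Rover, at 0.44 (adjusted p = 0.0226), lost without Rover replicate 2 or 4.

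AlaRS (CG13391), the alanine enzyme, had 0.01, 0.00, -0.37 and -0.61 on the Rover arrays and -0.13, -0.09, 0.05 and -0.39 on the sitter arrays. The mean was -0.24 ± 0.30 in Rover (adjusted p = 0.175) and -0.14 ± 0.19 in sitter (adjusted p = 0.511; SD, n = 4 each). The lowest value in each background was that of replicate 4. Centred, the means were 0.17 in Rover and 0.06 in sitter, called in neither. IleRS (CG11471, isoleucine) averaged -0.26 in Rover and -0.13 in sitter. ThrRS (CG5353, threonine) averaged -0.38 in Rover and -0.04 in sitter, its Rover mean carrying a value of -1.24 on Rover 2 with the other 3 arrays between -0.40 and 0.29. Centred, IleRS averaged 0.15 in Rover and 0.06 in sitter and ThrRS 0.03 in Rover and 0.16 in sitter, with no call. No amino acid had both its cytosolic and its mitochondrial enzyme among the members, so the compartments were compared over different amino acids.

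Among the factors, eIF2D and eEFSec stood apart from the rest by being negative on all 8 arrays on both scales. eIF2D (CG31426) is, in mammals, a factor that can place tRNA on the small subunit outside the main eIF2 route and that helps to recycle the subunit after termination. It had -1.07, -1.61, -1.46 and -1.50 on the Rover arrays, a narrow range, and -0.25, -0.76, -1.49 and -0.17 on the sitter arrays, a wide one. Its mean was -1.41 ± 0.24 in Rover (adjusted p = 0.00219) and -0.67 ± 0.61 in sitter (adjusted p = 0.0468; SD, n = 4 each).

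The Rover mean of eIF2D was within the lowest 1.2% of genes on the arrays. Centred, it was -1.001 in Rover (adjusted p = 0.0069) and -0.47 in sitter (adjusted p = 0.0909). On sitter 2 its spots gave -1.61 and 0.09, so the sitter value there is poorly fixed, and the sitter call as deposited held in 3 of the 8 repeats that left out 1 array.

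eEFSec (CG9841) is the elongation factor that delivers the selenocysteine tRNA. It had -0.79, -0.60, -0.89 and -1.12 on the Rover arrays and -0.30, -0.60, -0.87 and -0.50 on the sitter arrays. The value on sitter 1 averages spots of -0.61 and 0.01, the second above that array's median of -0.11. The mean was -0.85 ± 0.22 in Rover (adjusted p = 0.0022) and -0.57 ± 0.24 in sitter (adjusted p = 0.0203; SD, n = 4 each). Centred, it was -0.44 in Rover (adjusted p = 0.015, lost without Rover replicate 4) and -0.37 in sitter (adjusted p = 0.055).

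The eIF3 complex, the large scaffold that holds the small subunit and other initiation factors together, stayed near 0 as deposited. The median over its 10 measured subunits was -0.01 in Rover and -0.04 in sitter, and 1 of the 10 was called in Rover and 0 in sitter, where 46.7% and 23.7% of all features were called. In sitter 1 of the 10 passed an unadjusted p of 0.05, as did 38% of all features. The exception was eIF3b (CG4878), one of the core subunits, with -0.41, -0.18, -0.32 and -0.28 on the Rover arrays and -0.25, -0.44, -0.11 and -0.50 on the sitter arrays. It was negative on all 8 arrays, at a mean of -0.30 ± 0.10 in Rover (adjusted p = 0.0419) and -0.32 ± 0.18 in sitter (adjusted p = 0.0516; SD, n = 4 each). The Rover call held in 1 of the 8 repeats that left out 1 array, and the centred mean was 0.11 in Rover and -0.13 in sitter.

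The subunits a, c, f1, f2, g1, i and k were all called positive in Rover after centring, 7 of 10, where 24.7% of all features were. In sitter limma called 0 of the 10 after centring, with 3 at an unadjusted p of 0.05, where 38.6% of all features were. The centred Rover means ran from 0.37 for eIF3i (CG8882, adjusted p = 0.0247) and 0.39 for eIF3g1 (CG8636, an RNA-binding subunit, adjusted p = 0.021) to 0.57 for eIF3f1 (CG9769, adjusted p = 0.00874) and 0.66 for eIF3a (CG9805, the largest scaffold subunit, adjusted p = 0.0148). In sitter the centred means of these 4 subunits were 0.26, 0.18, 0.28 and 0.16 in that order, and none passed. Without Rover replicate 2, the centred Rover calls of eIF3f1 and eIF3k were kept and the other 5 were lost. Of the 10 subunits, 5 were above the median on all 8 arrays (eIF3c, eIF3f2, eIF3g1, eIF3i and eIF3k), where 15.9% of all features were.

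eIF3k (CG10306), a small peripheral subunit, shows how narrow some of these ranges were. It had 0.05, 0.05, 0.09 and 0.17 on the Rover arrays as deposited and -0.08, 0.08, 0.12 and 0.34 on the sitter arrays. Neither mean passed, at 0.09 in Rover (adjusted p = 0.511) and 0.12 in sitter (adjusted p = 0.462), whereas the centred Rover mean of 0.50 did (adjusted p = 0.0117). Which scale describes the RNA of these subunits was not tested.

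The eIF4 factors bind the cap of the mRNA and unwind its leader. Their median was -0.05 in Rover and -0.04 in sitter as deposited, with 1 of the 7 called in Rover and 0 in sitter, where 46.7% and 23.7% of all features were called. In sitter 1 of the 7 passed an unadjusted p of 0.05, as did 38% of all features. After centring 4 of the 7 were called positive in Rover and 1 in sitter, where 24.7% and 2.7% of all features were. eIF4E3 (CG8023), a cap-binding protein of the eIF4E family, had 0.08, 0.15, 0.14 and -0.08 on the Rover arrays and 0.18, 0.23, 0.06 and 0.60 on the sitter arrays. It was not called as deposited (means 0.07 and 0.26), and centred it was called in both backgrounds, at 0.48 in Rover (adjusted p = 0.012) and 0.46 in sitter (adjusted p = 0.0368, lost without sitter replicate 2, 3 or 4).

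eIF4E5 (CG8277), another cap-binding protein of that family, was the factor whose backgrounds differed most. It had -0.59, -0.30, -1.08 and -0.29 on the Rover arrays and 0.22, 0.07, 0.22 and 0.62 on the sitter arrays, so that 4 of 4 Rover values were negative and 4 of 4 sitter values positive. The Rover mean of -0.56 was called (adjusted p = 0.015) and was lost without Rover replicate 3. The sitter mean of 0.28 was not called (adjusted p = 0.221), and after centring neither was. The split by sign rests on the deposited scale and on averaged spots. Centred, the Rover values were -0.34, 0.09, -0.59 and 0.21. As deposited, its spots gave -0.66 and 0.07 on Rover 2 and 0.04 and -0.61 on Rover 4.

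eIF4A (CG9075), the RNA helicase of the cap complex, kept to narrow ranges of opposite sign. It had 0.06, 0.04, 0.14 and 0.14 on the Rover arrays and -0.17, -0.13, -0.26 and -0.23 on the sitter arrays. Neither mean was called as deposited, at 0.10 ± 0.05 in Rover (adjusted p = 0.418) and -0.20 ± 0.06 in sitter (adjusted p = 0.138; SD, n = 4 each). Centred, eIF4A was called in Rover at 0.51 (adjusted p = 0.00903) and not in sitter, where its mean was 0.00.

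The scaffold proteins of the cap complex differed in their spread. eIF4G1 (CG10811) had -0.17, -0.14, -0.02 and -0.26 on the Rover arrays and -0.09, -0.02, 0.09 and -0.13 on the sitter arrays, and its 4 spots averaged between -0.13 and -0.06 over the 8 arrays, with a median gap of 0.24 on an array. eIF4G2 (CG10192), its relative known from the male germline, had -0.89, 0.06, -0.15 and 0.08 on the Rover arrays and -0.60, -0.06, -0.18 and 0.28 on the sitter arrays, with replicate 1 lowest in both. Neither was called in either background on either scale, though eIF4G1 was called over both after centring, at 0.21 (adjusted p = 0.0461), which held in 1 of the 8 repeats that left out 1 array.

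eIF4H2 (CG1340) was among the factors of most positive ratio, with 0.40, 0.03, 0.12 and 0.16 on the Rover arrays and -0.07, 0.30, 0.07 and 0.21 on the sitter arrays. Neither mean was called as deposited (adjusted p = 0.216 in Rover and 0.455 in sitter), and centred its Rover mean was 0.59 (adjusted p = 0.00773). eIF4B (CG10837), which stimulates the helicase, averaged -0.05 in Rover and -0.04 in sitter, and 0.36 after centring in Rover (adjusted p = 0.0281, lost without Rover replicate 2, 3 or 4). Relatives of similar sequence can share signal on a cDNA spot, and how far this holds for the eIF4E, eIF4G, eIF3f and eEF1alpha genes was not tested.

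The factors that carry the initiator tRNA or set the start site were mixed. eIF2beta (CG4153), a subunit of the GTPase eIF2, averaged 0.00 in Rover and 0.09 in sitter, and 0.41 after centring in Rover (adjusted p = 0.0224, lost without Rover replicate 1, 2 or 4). The measured subunits of eIF2B, the exchange factor that reloads eIF2 with GTP, gave 0 calls of 4 as deposited in either background, where 46.7% of all features were called in Rover and 23.7% in sitter. At an unadjusted p of 0.05 they also gave 0 of 4, where the shares of all features were 52.7% in Rover and 38% in sitter. Centred, eIF2Bgamma (CG8190) was called in sitter at 0.42 (adjusted p = 0.0492), which held in 1 of the 8 repeats that left out 1 array. Over both backgrounds after centring, eIF2Bgamma (0.37, adjusted p = 0.00651) and eIF2Balpha (0.27, adjusted p = 0.0186) were called positive, where 28.1% of all features were. eIF2Bbeta was not (0.24, adjusted p = 0.0763).

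eIF2Bdelta (CG10315), the eIF2B subunit of most negative mean, had -0.02, -0.01, -2.09 and -0.24 on the Rover arrays and -0.29, 0.01, -0.31 and -0.08 on the sitter arrays. The mean of -0.59 in Rover (adjusted p = 0.149) rested on Rover 3, and leaving that array out moved it to -0.09. Centred, it averaged -0.18 in Rover and 0.03 in sitter, with no call. eIF5B (CG10840), the GTPase that joins the subunits, had 0.04, -0.19, 1.09 and -0.19 on the Rover arrays and 0.46, 0.43, 0.24 and -0.02 on the sitter arrays. It had the most positive mean of all members over both backgrounds, 0.23, which was not called as deposited (adjusted p = 0.223). Centred, eIF5B was called over both at 0.53 (adjusted p = 0.0145) and in Rover at 0.60 (adjusted p = 0.0458), the Rover call holding in 0 of the 8 repeats that left out 1 array.

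eIF2A (CG7414), an initiator-tRNA-binding protein that is no part of eIF2, had -0.16, -0.76, -0.38 and -0.43 on the Rover arrays and 0.10, -0.19, -0.18 and -0.20 on the sitter arrays. It was called in Rover at -0.43 (adjusted p = 0.0162) and not in sitter at -0.12 (adjusted p = 0.544). On Rover 2 its spots gave -1.98 and 0.45, and the call was lost without Rover replicate 2. Centred, the Rover mean was -0.02.

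Of the elongation factors other than eEFSec, eEF1alpha2 (CG1873), which brings charged tRNAs to the ribosome, had -0.05, -0.23, -0.49 and -0.23 on the Rover arrays and -0.15, -0.37, -0.32 and -0.38 on the sitter arrays. It was negative on all 8 arrays and was called over both backgrounds (mean -0.28, adjusted p = 0.0122), but in neither alone. Centred, the mean over both was 0.02. Its spots fell in 2 pairs, averaging -0.14 and -0.15 against -0.47 and -0.35.

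eEF1delta (CG4912), part of the exchange factor for eEF1alpha, averaged -0.21 ± 0.32 in Rover and -0.05 ± 0.23 in sitter (SD, n = 4 each), and was not called on either scale. eEF5 (CG3186), the factor formerly called eIF5A that carries the modified residue hypusine, averaged 0.18 ± 0.26 in Rover and 0.11 ± 0.12 in sitter (SD, n = 4 each). Centred, eEF5 was called positive in Rover at 0.59 (adjusted p = 0.00934). eRF3 (CG6382), the GTPase of termination, averaged -0.05 in Rover and -0.21 in sitter. eIF6 (CG17611), which keeps the large subunit from joining too early, averaged -0.16 in Rover and 0.08 in sitter. Neither eRF3 nor eIF6 was called as deposited. Centred, eIF6 was called over both at 0.26 (adjusted p = 0.0499), which held in 3 of the 8 repeats that left out 1 array, and eRF3 was called in Rover at 0.36 (adjusted p = 0.049), which held in 1 of the 8 repeats that left out 1 array.

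Counted array by array, 22, 28, 26 and 27 of the 31 factors lay above the median of Rover arrays 1 to 4, and 19, 26, 28 and 20 above the median of sitter arrays 1 to 4. The counts were lowest on Rover 1, sitter 1 and sitter 4, the arrays of higher gain. Of the 31, 13 were above the median on all 8 arrays (41.9%), where 15.9% of all features were. Of the 31, 2 were below it on all 8 (6.45%), where 19.2% of all features were.

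No member differed between the backgrounds after adjustment. In Rover minus sitter 0 of 43 were called by limma, where 0.0466% of all features were called, and 3 members passed an unadjusted p of 0.05 (eIF4E5, eIF2D and eIF4A), where 9.4% of all features did. After centring it was again 0 of 43, where 0.0776% of all features were called, with 2 at an unadjusted p of 0.05, where 9.14% of all features were. A p that misses the threshold does not show that the backgrounds were alike, and the intervals give the sizes that remain possible. For eIF4E5 the difference was -0.85 (95% interval -1.34 to -0.35, adjusted p = 0.313), for eIF2D it was -0.74 (-1.41 to -0.08, adjusted p = 0.489), and for eIF4A it was 0.30 (0.01 to 0.58, adjusted p = 0.52).

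The synthetases with the smallest p in this comparison were GluRS-m at -0.35 (95% interval -0.70 to 0.00, adjusted p = 0.536), ValRS-m at -0.50 (-1.08 to 0.09, adjusted p = 0.581) and CysRS-m at -0.67 (-1.49 to 0.16, adjusted p = 0.589). Arrays of the backgrounds did not overlap for 3 of the 43 members (eIF4E5, GluRS-m and eIF4A; 6.98%), where this held for 5.94% of all features. After centring it held for 4 of the 43 (eIF4E5, eIF4A, eIF3f1 and eEF1alpha2; 9.30%), where it held for 7.65% of all features. Both shares were near those of all features.

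**Figure D4:**
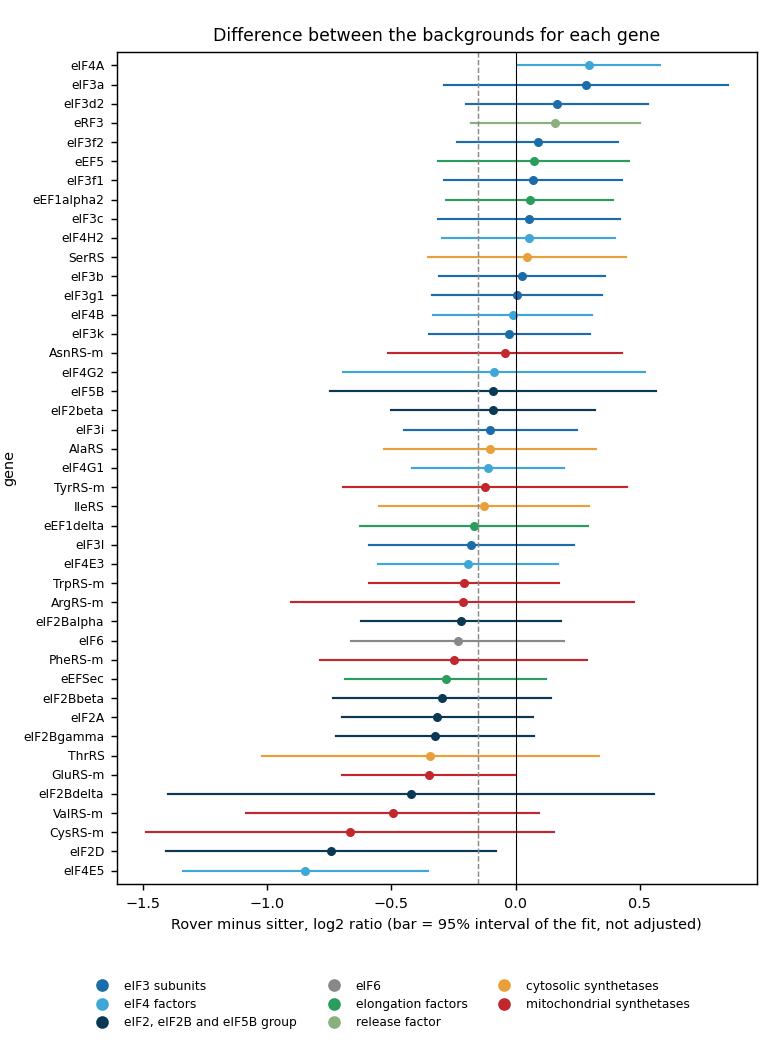
Rover minus sitter for each of the 43 members on the deposited log2 scale (horizontal axis), with 95% intervals from the fit across all features. The intervals of eIF4E5 (-1.34 to -0.35), eIF2D and eIF4A leave out 0 before adjustment, and 0 of 43 members passed after it.

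**Figure D5:**
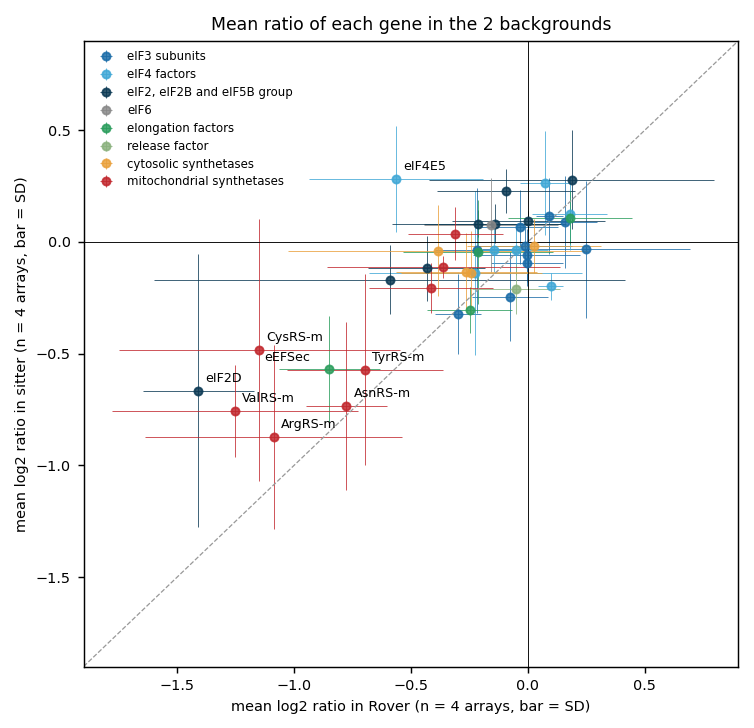
Mean deposited log2 ratio of each member in sitter against its mean in Rover (4 arrays each, bars give the SD, and the dashed line marks equal means). The lower left holds eIF2D (-1.41 in Rover, -0.67 in sitter), eEFSec and 5 mitochondrial synthetases, and eIF4E5 stands apart at -0.56 in Rover and 0.28 in sitter.

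Other genes of translation came from a list of regulators and organelle factors outside the naming rule. Of 47 listed, 23 were measured, and 7 were called in Rover (30.4%), all negative, and 1 in sitter (4.35%), where 46.7% and 23.7% of all features were called. After centring 10 were called in Rover, 8 positive and 2 negative, where 24.7% of all features were called positive and 23.4% negative. mEFG1, a mitochondrial elongation factor that moves the ribosome along the mRNA, had -0.33, -0.96, -1.59 and -1.26 on the Rover arrays and -0.13, -1.17, -1.01 and -0.46 on the sitter arrays. Its mean was -1.03 in Rover (adjusted p = 0.00591) and -0.69 in sitter (adjusted p = 0.053), and like CysRS-m it was nearest 0 on Rover 1, sitter 1 and sitter 4.

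mIF2, a mitochondrial initiation factor, averaged -0.85 in Rover (adjusted p = 0.00231) and -0.41 in sitter (adjusted p = 0.0518). Non3 averaged -0.98 in Rover (adjusted p = 0.0126) and HBS1, a GTPase that rescues stalled ribosomes, -0.63 (adjusted p = 0.00351), and neither was called in sitter. Upf1, the helicase of nonsense-mediated decay, was the sitter call, at -0.59 in Rover (adjusted p = 0.00986) and -0.69 in sitter (adjusted p = 0.0186). Centred, mEFG1 (-0.63, adjusted p = 0.025) and mIF2 (-0.45, adjusted p = 0.0175) kept their Rover calls. Non3 (-0.57, adjusted p = 0.0519), HBS1 (-0.22, adjusted p = 0.0962) and Upf1 (-0.18, adjusted p = 0.236) lost theirs. Upf1 kept its sitter call after centring, at -0.50 (adjusted p = 0.0383). The 6 mitochondrial translation factors of that list (mEFTu2, mEFTs, mEFG1, mRRF1, mRRF2 and mIF2), grouped after their values were seen, were negative in 6 of 6 in Rover, with a median of -0.37 and 3 called. All features had a median of -0.39 in Rover, where 78.9% were negative and 46.7% were called, so the group lay at the middle of the Rover arrays. In sitter 5 of the 6 were negative, with a median of -0.16, and limma called 0, with 2 at an unadjusted p of 0.05 (mEFG1 and mIF2), where the median of all features was -0.20 and 38% passed that p.

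Ratios carry no level, so whether a tissue's markers were expressed could not be read. Markers of gonads (5 measured of 12 listed) had array medians of -0.96 to -0.74 in Rover and -0.87 to -0.04 in sitter, and those of haemocytes (8 of 11) -0.68 to -0.22 in Rover and -0.70 to -0.13 in sitter. Fat body markers (3 of 6) had array medians between -0.39 and 1.75 in Rover and between -3.84 and -0.20 in sitter, and salivary gland markers (4 of 11) between -1.24 and -0.18 in Rover and between -0.23 and -0.03 in sitter. The salivary gland medians hide single markers far from them. These ran from -2.05 to 3.63 on Rover 3, from -1.39 to 4.75 on Rover 4 and from -5.03 to 0.43 on sitter 3. The array medians of midgut (10 of 18) and muscle markers (5 of 13) stayed within -0.29 to 0.23. Single markers ran wider: on sitter 4 those of the midgut lay between -1.27 and 1.15, and those of muscle between -0.53 and -0.21. Their part in the members' ratios was not tested.

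Spots of the same member agreed within a median gap of 0.16 on an array, taken over the members' median gaps. The largest gaps, each on a single array, were those of ArgRS-m and eIF2A on Rover 2 (2.54 and 2.44), eIF2D on sitter 2 (1.70), and TyrRS-m and CysRS-m on Rover 2 (1.58 and 1.53).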

How the data were processed

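Each array gave 27648 spots with 0 missing values. The deposited values are log2 ratios made by the authors from normalised intensities, per the labels. The base, the numerator, the dyes and the normalisation are not given in the sources used here. Slides were quantified with no background subtraction, per the labels. Replicate 1 of each background was of another lot batch and was hybridised for 15.75 hours, the others for 17.75 hours.

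The probe table gave 15116 spots 1 symbol and 102 several, and did not list 12430. Spots of a gene were averaged per array (39 members had 2 spots and 4 had 4). Other spots stayed single, for 19325 features in all. Log2 ratios were fitted with limma 3.58.1 (R 4.3.3), with a mean per background over 8 arrays, empirical Bayes moderation and Benjamini-Hochberg adjustment over all features at 0.05. All adjusted p-values come from this fit, deposited or centred. The fit was tested on simulated ratios, made of independent noise around 0 with changes added to some features. They held no shift common to an array, unlike the arrays here, so that test does not vouch for the calls. No p-value was computed for a class.

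Members, lists and tests were chosen with earlier results of these data known. Values by array are given for the 5 most negative and 3 most positive members of each class, the 3 of smallest p in Rover minus sitter, the eIF4E, eIF4G and eEF1alpha genes, and others chosen after their values were seen. From the other translation genes up to 4 calls per background are named by rule. Same-numbered arrays correlated in their deviations at 0.31, 0.123, 0.0621 and 0.0568, so numbers were not taken as pairs. Alternatives were centring, scaling, a block for lot batch, a block for replicate number, separate fits of the backgrounds, Cy5 gain 64 only (5 arrays), single spots and leaving out each array. Keeping only the arrays of the later lot batch was added after seeing the data. Member sequences were not used here.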

Additional observations from a re-analysis of the deposited data

Results flagged for a closer look

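In 3 of 96 groups of 4 arrays (48 named genes in 2 backgrounds), 1 array lay far from the other 3, where chance alone gives about 4.8 such groups, 1 in 20. eIF2Bdelta was at -2.09 on Rover 3, with the other Rover arrays between -0.24 and -0.01. eEF5 was at 0.29 on sitter 4, with the other sitter arrays between 0.04 and 0.05. eIF2A was at 0.10 on sitter 1, with the other sitter arrays between -0.20 and -0.18. The causes were not tested.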

How the results depend on the processing

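After centring, the factors called (as deposited 5 in Rover, 2 in sitter and 5 over both, all negative) became 17, 2 and 20, mostly positive, and with scaling added 11, 11 and 19. Of all features, 46.7%, 23.7% and 48.8% were called as deposited and 48.1%, 13.3% and 60.1% after centring. For scaling and the alternatives below, other than leaving out 1 array, the shares of all features are not given here. A shift of the members cannot be told there from a shift of all features. Centred and scaled, 4 synthetases were called in Rover, 1 positive and 3 negative, in place of 7 negative. The Rover factor count was 3 at Cy5 gain 64 only, 3 with each background by itself, 3 with the first spot of each gene and 3 in the later lot batch alone. With each background by itself the sitter count was 1, and with the first spot the count over both was 3. Leaving out 1 array gave 3 to 5 factors and 4 to 8 synthetases in Rover, 0 to 2 and 0 to 4 in sitter, and 4 to 5 factors over both. Over all features it gave 7090 to 8918 calls in Rover, 22 to 5023 in sitter and 8450 to 9514 over both. With the replicate block, 4 factors and 6 synthetases were called in Rover, 2 and 5 in sitter and 5 and 6 over both. Replicate numbers alone do not pair these arrays, and not every array correlated best with its own number. Rover minus sitter gave 0 members in every alternative run. Without the mitochondrial synthetases, factors minus synthetases was 0.094 in Rover, 0.043 in sitter and 0.068 over both, against 0.38, 0.16 and 0.27. By means over members it was 0.29 in sitter. Centring turned negative member means positive, 22 in Rover and 16 in sitter, with 22 for both backgrounds together and 15 for Rover minus sitter, and turned 0 the other way. Where a call was involved on either scale, these were, in Rover, GluRS-m (0.10, with scaling 0.079), eIF3b (0.11, 0.064), eIF3c (0.40, 0.35), eIF3g1 (0.39, 0.33), eIF3f2 (0.40), eIF3i (0.37), eIF4B (0.36) and eRF3 (0.36), and TrpRS-m was 0.0054 with scaling. Over both backgrounds they were eIF2A (0.027, 0.047), eIF2Balpha (0.27, 0.28), eIF3c (0.27, 0.26), eIF3f2 (0.25, 0.20), eIF3g1 (0.29, 0.26), eIF4A (0.25, 0.19), eIF4B (0.26, 0.21), eEF1alpha2 (0.024), eIF4G1 (0.21) and eIF6 (0.26), and with scaling for GluRS-m (0.19) and eIF2Bbeta (0.23). Centring subtracts a negative array median, so every value moves up by construction. Over the 43 members and all alternatives, 2263 values kept sign and side of the threshold, 78 lost a call, 57 gained one, 32 changed sign with a call involved and 236 changed sign with none. Spot intensities were not analysed here, so signal over background gives no limit.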
